A study of Mus musculus with 4 samples.

Results

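Sorting nexins and the core subunits of retromer comprised 33 of the 21044 genes in the expression table, 29 genes named Snx with a number and 4 named Vps (Vps26a, Vps26b, Vps29 and Vps35), all protein-coding. They were taken by name. The family was proposed because Snx8 was lower in both knockout libraries, so its values in the knockout and control libraries are given as a description, without a test. RNA-seq was done on microglia isolated from the corpus callosum of mice at postnatal day 7. The controls were Lag3fl/fl mice (WT, 2 libraries), with a floxed allele of Lag3, an inhibitory immune receptor gene. The conditional knockouts were Lag3cKO-Cx3 mice (cKO, 2 libraries). The labels do not spell out the driver that the suffix Cx3 refers to, nor whether controls carry it. Whether each library holds 1 mouse or several is not stated either, so p-values measure the spread between these libraries, which may be technical.

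Sorting nexins are peripheral membrane proteins that share a PX domain, a fold that binds phosphoinositides, most often the phosphatidylinositol 3-phosphate of early endosomes. Retromer, built of VPS26, VPS29 and VPS35, works with them to lift receptors out of endosomes and return them to the Golgi or the plasma membrane before they reach the lysosome. In microglia, retromer is known for recycling surface receptors such as TREM2. Those sorting nexins that also carry a BAR domain bend membrane into the tubules in which cargo leaves.

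Total counts ranged from 14645187 to 16770162 per library, and genes with at least 1 count numbered 14840 to 15899 in 3 libraries and 12787 in cKO replicate 2. Lag3 counts were 6064 and 10007 in WT against 595 and 257 in cKO. Cx3cr1, the microglial fractalkine receptor gene, was at 6443 and 6554 counts per 1e6 (CPM, scaled by TMM, the trimmed mean of M values) in WT and 3404 and 3034 CPM in cKO. All 10 microglial markers were detected in every library, with summed levels of 28510 and 31592 CPM in WT and 29867 and 28020 in cKO. The sum covers shifts both ways. Both cKO libraries lay above both WT libraries for 3 markers (P2ry12, Tmem119 and Aif1) and below for 2 (Cx3cr1 and Trem2). Among all genes averaging 5 CPM or more, 17.1% lay above and 19.1% below. Tmem119 was at 380.9 and 540.9 CPM in WT and 773.2 and 1172 CPM in cKO. Across genes, the second cKO library correlated with the other libraries at r = 0.783 to 0.802, while the other libraries reached 0.892 to 0.910 with their closest. The summed level of 10 astrocyte markers was 225.6 and 183.4 CPM in WT and 239.3 and 525.1 CPM in cKO, with Fgfr3 at 0 in WT replicate 2 and S100b at 0 in cKO replicate 2. Markers of neutrophils and monocytes, also 10, summed to 18.6 and 13.8 CPM in WT and to 25.2 and 147.1 CPM in cKO, with Ly6g at 0 in 3 libraries and 97 counts in cKO replicate 2. Ngp and Camp were at 0 in WT replicate 1, and Ltf in cKO replicate 1. Oligodendrocyte markers (7 with counts) summed to 120.6 and 115.6 CPM in WT and 222.1 and 148.1 CPM in cKO, with Mog at 0 in both cKO libraries and Mobp at 0 in WT replicate 2 and cKO replicate 1. Erythroid markers (3 with counts) summed to 3.57 and 4.71 CPM in WT and 11.1 and 12.1 CPM in cKO, with Alas2 at 0 in cKO replicate 2. The sums for oligodendrocyte precursors, neurons, endothelial and mural cells, and border-associated macrophages overlapped between groups. In cKO replicate 2, however, 4 of 5 neuronal markers were at 0, all but Tubb3. There 5 of 6 endothelial and mural markers were also at 0, all but Pecam1, as was Cd163 of the border-associated macrophages. The other libraries had 0 or 1 neuronal and 0 to 2 endothelial and mural markers at 0. The part of such cells in the differences below was not tested. In bulk RNA, fewer cells of a type and less RNA per cell cannot be told apart. The Y-linked Ddx3y, Uty, Eif2s3y and Kdm5d had counts in both WT libraries and cKO replicate 1, and 0 in cKO replicate 2. Xist was at 290.4 CPM in cKO replicate 2 and at 0 in both WT libraries. The groups are thus unmatched for sex-linked transcripts in every comparison below, that of Snx8 included, and their part was not tested.

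The family was well expressed in control microglia. FPKM values, which are per gene length and so allow genes to be compared, exceeded the median of 14823 protein-coding genes (2.53 FPKM in WT) for 29 of the 33 members. The highest in WT were Snx2 at 319.1 ± 8.94 FPKM (SD, n = 2), Snx3 at 236.5 ± 15.1, Snx5 at 187.8 ± 8.52, Snx17 at 155.1 ± 9.55, Snx6 at 139.4 ± 15.4 and Vps26a at 128.7 ± 1.03. These 6 genes held between 71.3% and 75.4% of the family's summed FPKM in each library. A further 12 members lay between 10 and 100 FPKM and 15 lay under 10. In the order of WT levels the values of the 2 WT libraries overlapped for 21 of 32 neighbouring members. Snx2, Snx3 and Snx5 each stood apart from the next gene down, Snx17, Snx6 and Vps26a overlapped in turn, and Vps26a stood apart from Vps29. Summed over the family, the level was 1610 and 1630 FPKM in WT and 1678 and 1778 FPKM in cKO. Snx2 alone had a mean of 319.1 FPKM in WT and 431.1 FPKM in cKO. The sums by CPM, the scale for comparing libraries, were 5354 and 5461 in WT and 5572 and 5498 in cKO.

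**Figure D1:**
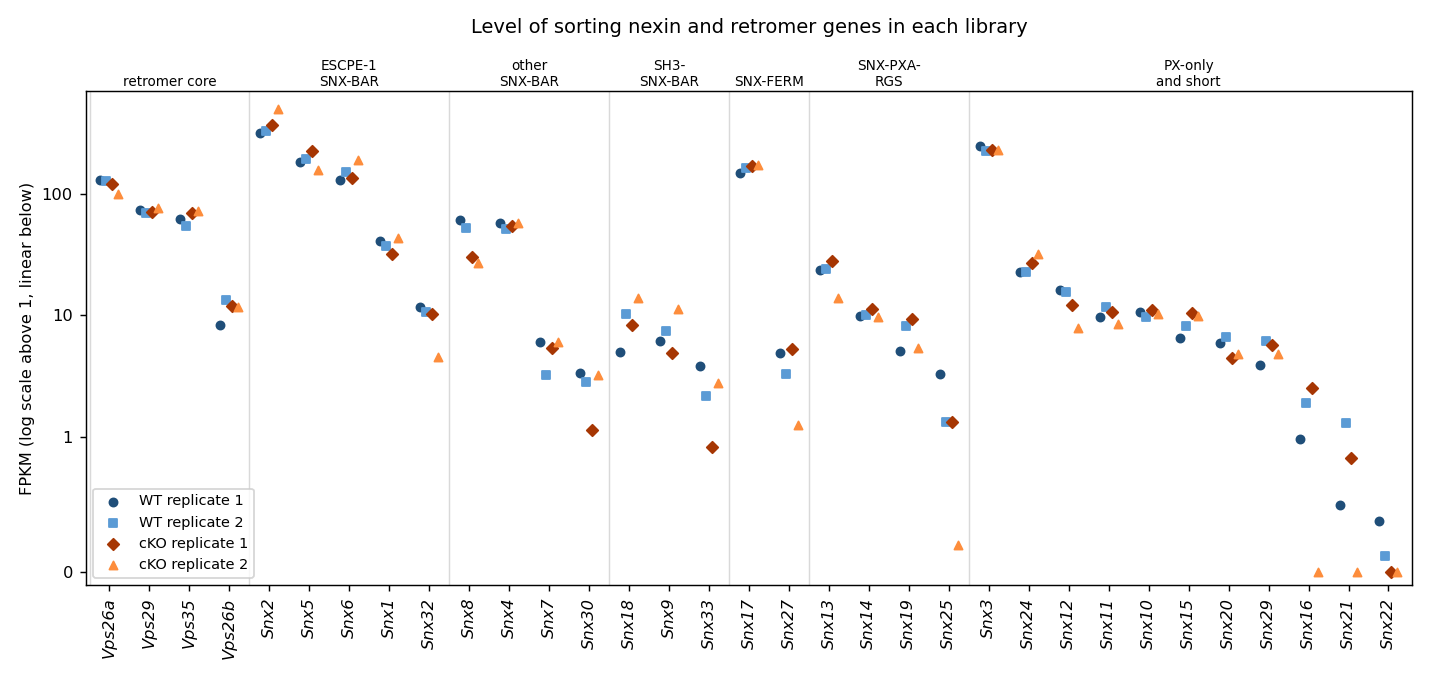
FPKM of the 33 members in each of the 4 libraries, grouped by role and ordered by WT level within a role. The axis is logarithmic above 1 FPKM and linear below. Snx2, Snx3, Snx5, Snx17, Snx6 and Vps26a lie highest, the orange points of Snx8 lie below both blue ones, and Snx16, Snx21 and Snx22 are at 0 in cKO replicate 2.

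Snx8, the mouse counterpart of yeast Mvp1, is an SNX-BAR protein of early endosomes that acts in traffic to the trans-Golgi network. The gene (ENSMUSG00000029560) lies on the minus strand of chromosome 5, from 140340299 to 140389262 (GRCm38). Its counts were 3109 and 2542 in WT against 1623 and 1274 in cKO. Scaled, this was 198.3 and 173.5 CPM in WT and 96.7 and 84.9 CPM in cKO. The libraries of each group lay close together, and the cKO values lay well under both WT values. The group means were 185.9 ± 17.5 CPM and 90.8 ± 8.28 CPM (SD, n = 2), 2.05-fold lower in cKO, and the fitted log2 fold change was -1.03 ± 0.20 (SE). Leaving out any 1 library gave -1.13 to -0.94. In WT, Snx8 ranked ninth in the family at 56.5 ± 5.75 FPKM (SD, n = 2), above 94.5% of protein-coding genes. It was level there with Snx4, at 54.3 ± 4.10 FPKM (SD, n = 2), the sorting nexin of transferrin receptor recycling and autophagy. Snx4 was at 141.3 and 128.3 CPM in WT and 133.1 and 137.6 CPM in cKO, so its groups overlapped.

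Because these 2 SNX-BAR genes had like levels in WT and unlike levels in cKO, the 250 bases before the RefSeq start of each are shown (GRCm38.p6, 5′ to 3′ on the strand of the gene). Capitals mark CACGTG, the core bound by basic helix-loop-helix factors such as TFEB, and GGGCGG, the core of the Sp1 site, on either strand. The Snx8 window is chr5:140389309-140389558 on the minus strand, and the Snx4 window is chr16:33251206-33251455 on the plus strand.
Snx8: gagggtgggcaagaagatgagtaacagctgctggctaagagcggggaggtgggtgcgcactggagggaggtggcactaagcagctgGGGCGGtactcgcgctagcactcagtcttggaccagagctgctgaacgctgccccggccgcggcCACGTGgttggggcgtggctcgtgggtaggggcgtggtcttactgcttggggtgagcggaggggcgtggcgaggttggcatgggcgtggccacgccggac
Snx4: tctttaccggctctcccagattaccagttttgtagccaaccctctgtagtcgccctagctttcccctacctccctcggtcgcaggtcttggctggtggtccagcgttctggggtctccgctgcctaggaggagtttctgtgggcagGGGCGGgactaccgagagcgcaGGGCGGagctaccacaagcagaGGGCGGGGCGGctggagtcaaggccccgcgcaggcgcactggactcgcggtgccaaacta
The Snx8 window held 1 match of CACGTG and 1 of GGGCGG, and the Snx4 window held none of the former and 4 of the latter, the last 2 overlapping each other. Both were rich in G and C, at 67.6% and 64.0%, with 19 and 17 CpG dinucleotides against a median of 6 over 32851 windows. Of the 24 members with a window in the RefSeq table, CACGTG was found for Snx5, Snx8, Snx18 and Vps26a, and for 6.86% of 27025 genes. GGGCGG was found for 18 of the 24, against 35.4% of genes. The fitted log2 fold changes of Snx5, Snx18 and Vps26a, which share the CACGTG match with Snx8, were -0.01, 0.50 and -0.28. A match in a window is a description of its letters and shows no binding.

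Snx8 is left out of the counts of edgeR and DESeq2 calls in this paragraph, since its values chose the family. Of the 31 other members tested with edgeR's quasi-likelihood test, 0 had an adjusted p under 0.05 in either direction, where 0% of 13086 genes did (percent called 0). The lowest adjusted p of that edgeR test over all genes was 0.9997, and the deleted gene Lag3 was not called either. A count of 0 therefore does not show that a member was unchanged, at any level. At an unadjusted p under 0.05 edgeR gave 0 of the 31 and 608 of all genes. DESeq2 called 0 of the 31, where it called 0.216% of genes lower and 0.171% higher. The median log2 fold change of the 32 members was -0.01, against -0.03 for all genes tested, with 15 fitted higher and 17 lower. Without cKO replicate 1, edgeR called 0 of the 31, where it called 0.81% of genes higher and 4.91% lower. Among genes averaging 5 CPM or more, the groups did not overlap for 12 of 30 members, where 36.2% of 9426 genes did not. The cKO values were the higher for 5 of these members (17.1% of genes) and the lower for 7 (19.1%). Snx8, whose lower cKO values chose the family, is included in the 12 and in the 7, so its place there was fixed in advance. Snx22 had too few counts for the test.

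**Figure D2:**
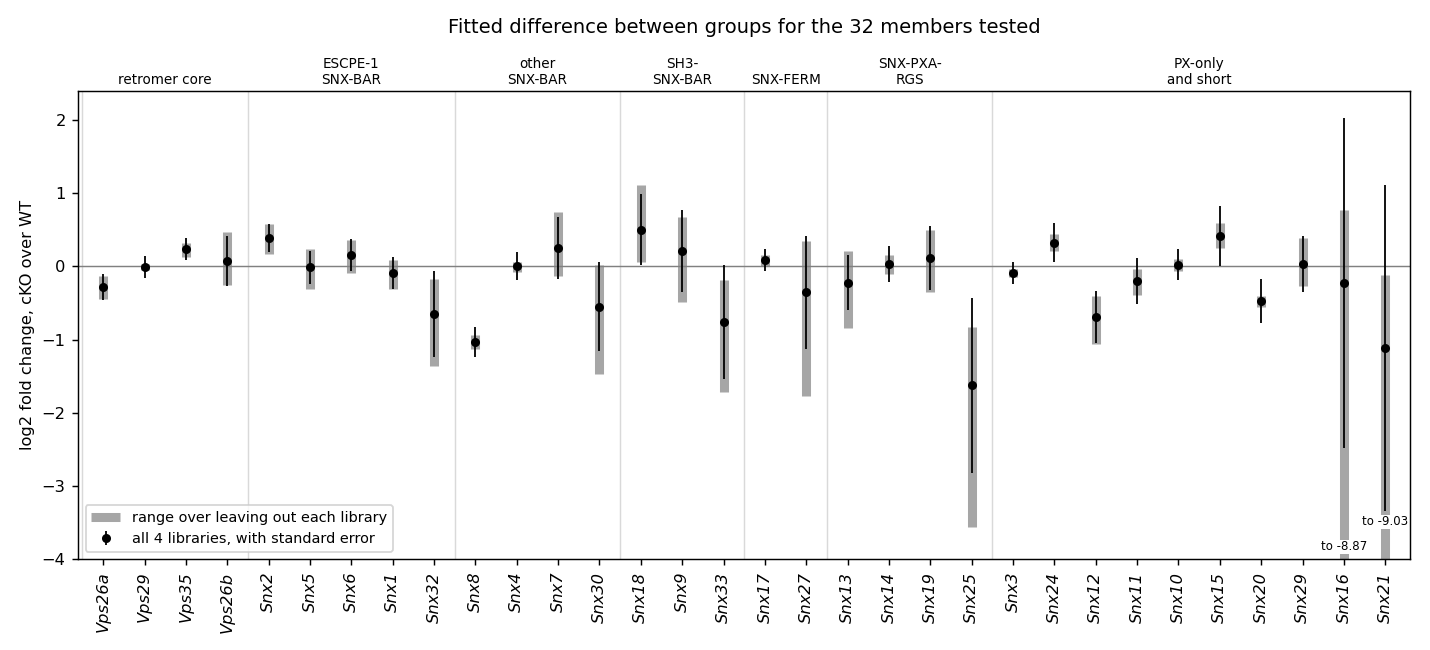
Fitted log2 fold change of cKO over WT for the 32 members tested, by role. Black points and bars give the value and its standard error from all 4 libraries, and grey bars give the range over leaving out each library. Snx8 lies at -1.03 with a narrow range, most abundant members lie near 0, and Snx16 and Snx21, with no count in 1 library, have ranges that run off the axis.

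The 4 retromer core genes had fitted log2 fold changes between -0.28 and 0.24. Vps35, the scaffold of the complex, was at 560.1 and 489.9 CPM in WT and 612.3 and 624.5 CPM in cKO, a log2 fold change of 0.24 ± 0.15 (SE). Vps29, which binds the far end of that scaffold, was at 458.0 and 437.5 CPM in WT and 431.1 and 458.6 CPM in cKO. Vps26a, the arrestin-like subunit that contacts SNX3 and cargo, was at 374.3 and 374.0 CPM in WT and 340.5 and 275.0 CPM in cKO. The Vps29 values were interleaved, both Vps35 values were somewhat higher in cKO, and both Vps26a values were somewhat lower, with a log2 fold change of -0.28 ± 0.18 (SE). Its paralog Vps26b was at 42.5 and 69.9 CPM in WT and 60.0 and 58.4 CPM in cKO, the WT libraries lying farther apart than the groups.

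Because scaling cancels in a ratio within 1 library, the partners were also compared as FPKM ratios, for pairs chosen after the values were seen. Vps26a to Vps35 was 2.08 and 2.38 in WT and 1.73 and 1.37 in cKO. Vps29 to Vps35 was 1.18 and 1.29 in WT and 1.02 and 1.06 in cKO. In both ratios the cKO values lay below the WT values. Both share the denominator Vps35, itself higher in both cKO libraries, so they are not separate observations. Vps29 alone overlapped between groups. The ratio of Vps26a to Vps26b was 15.7 and 9.54 in WT and 10.1 and 8.39 in cKO, and its groups overlapped. Vps26a exceeded Vps26b in all 4 libraries.

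**Figure D3:**
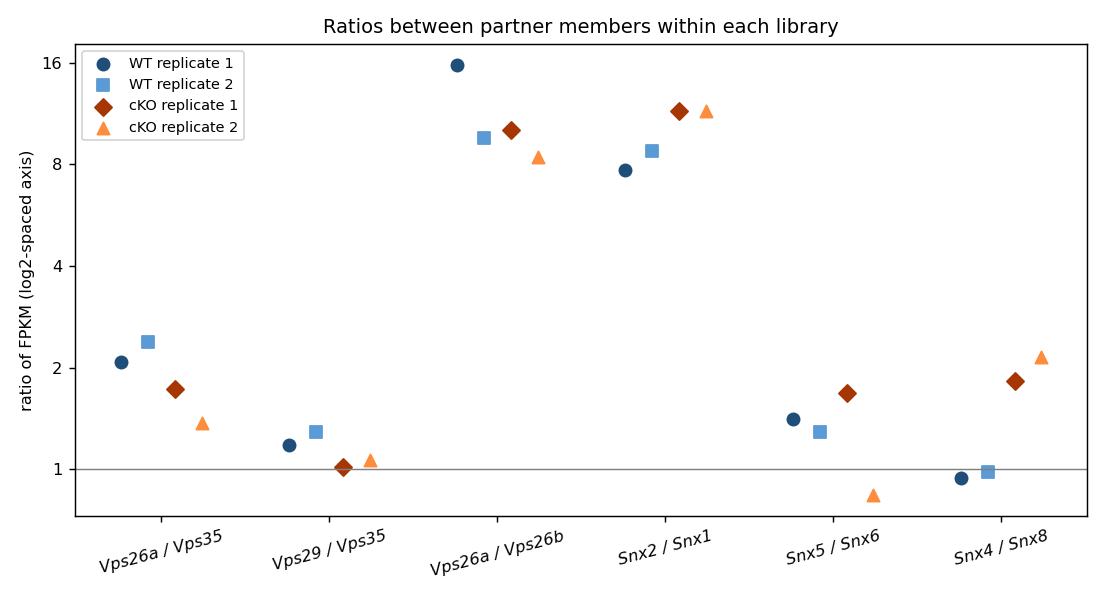
Ratio of FPKM between partner members within each library, on a log2-spaced axis where the grey line marks equal levels. The cKO points lie below the WT points for Vps26a to Vps35 and Vps29 to Vps35 and above them for Snx2 to Snx1 and Snx4 to Snx8, while Vps26a to Vps26b and Snx5 to Snx6 overlap. The Snx4 to Snx8 ratio holds Snx8, whose lower cKO values chose the family, so its separation is no further result.

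The ESCPE-1 coat pairs SNX1 or SNX2 with SNX5, SNX6 or SNX32 and carries the cation-independent mannose 6-phosphate receptor. Snx2 was at 636.8 and 669.6 CPM in WT and 737.3 and 973.9 CPM in cKO, higher in both cKO libraries, with a log2 fold change of 0.39 ± 0.19 (SE). That value was 0.17 without cKO replicate 2. Its paralog Snx1 was at 178.0 and 164.8 CPM in WT and 138.3 and 183.1 CPM in cKO, which enclose the WT values. The FPKM ratio of Snx2 to Snx1 was 7.71 and 8.76 in WT and 11.5 in each cKO library, so Snx2 exceeded Snx1 throughout and by more in cKO. Snx5 was at 767.6 and 827.3 CPM in WT and 937.6 and 643.6 CPM in cKO, and Snx6 at 389.7 and 460.8 CPM in WT and 400.5 and 548.4 CPM in cKO. The cKO libraries disagreed in opposite ways for these partners, and the FPKM ratio of Snx5 to Snx6 was 1.41 and 1.29 in WT, 1.68 in cKO replicate 1 and 0.842 in cKO replicate 2. Snx32, the third partner, had 307 and 263 counts in WT and 280 and 109 in cKO. Scaled, this was 19.6 and 18.0 CPM in WT and 16.7 and 7.27 CPM in cKO, so the groups did not overlap by CPM. The lower mean in cKO rested mostly on replicate 2, and without it the log2 fold change went from -0.65 to -0.17. Snx32 shares exon positions with Cfl1 on the other strand, a cofilin gene at 6749 to 7557 CPM, and no source used here states the strand setting of the counting.

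Of the other SNX-BAR genes, Snx7 and Snx30, whose products pair with SNX4, were low and varied between replicates. Snx7 was at 37.4 and 20.3 CPM in WT and 32.9 and 35.7 CPM in cKO. Snx30 was at 26.2 and 22.5 CPM in WT, 8.75 CPM in cKO replicate 1 and 24.6 CPM in cKO replicate 2, the last within the WT range. Snx30 had a log2 fold change of -0.55 ± 0.61 (SE), and of 0.01 without cKO replicate 1. Its exons overlap a processed pseudogene on the same strand.

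Sorting nexins with an SH3 domain act with dynamin at clathrin-coated and other endocytic sites. Snx18 was at 26.3 and 54.3 CPM in WT and 43.4 and 71.0 CPM in cKO, a 2.06-fold difference between the WT libraries. Snx9 was at 14.99 and 18.2 CPM in WT and 11.8 and 26.5 CPM in cKO, and Snx33 at 17.7 and 10.1 CPM in WT and 4.23 and 12.3 CPM in cKO. All 3 had overlapping groups, and for Snx9 and Snx33 the cKO libraries differed 2.24-fold and 2.90-fold, replicate 2 being the higher.

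The FERM-type members recognise sorting motifs in receptor tails, SNX17 in LRP1 and integrins and SNX27 through a PDZ domain together with retromer. Snx17 varied little, at 463.7 and 511.4 CPM in WT and 518.6 and 518.1 CPM in cKO. It shares exon positions with Eif2b4 and Zfp513 on the opposite strand. Snx27 was at 34.0 and 23.1 CPM in WT, 36.4 CPM in cKO replicate 1 and 8.33 CPM in cKO replicate 2, so its cKO libraries differed 4.37-fold. The log2 fold change of Snx27 was -0.35 with a standard error of 0.77, and leaving out cKO replicate 2 gave 0.35, cKO replicate 1 -1.78.

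Members with PXA and RGS-like domains sit at contacts of the endoplasmic reticulum with endosomes or lipid droplets. Snx13 was at 187.1 and 193.4 CPM in WT, 220.5 CPM in cKO replicate 1 and 106.1 CPM in cKO replicate 2, the cKO values lying on either side of WT. Snx14 was at 60.8 and 62.0 CPM in WT and 68.7 and 57.0 CPM in cKO. Snx19 was at 34.4 and 55.8 CPM in WT and 62.2 and 35.3 CPM in cKO. Neither gene separated the groups. The exons of Snx14 overlap another gene on the same strand. Snx25 had 231 and 88 counts in WT and 98 and 13 in cKO, or 14.7 and 6.01 CPM against 5.84 and 0.867 CPM. Its groups did not overlap by a narrow margin, since WT replicate 2 and cKO replicate 1 were nearly equal. The log2 fold change of Snx25 was -1.63 with a standard error of 1.19, from -3.57 to -0.83 over leaving out each library. Cfap97, which shares exon positions with Snx25 on the other strand, was at 10.01 and 18.2 CPM in WT and 12.3 and 5.13 CPM in cKO.

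Members with a PX domain and few other domains ranged from the abundant Snx3 to the barely detected Snx22. Snx3, which recruits retromer for cargo such as Wntless, was at 353.2 and 326.2 CPM in WT and 322.2 and 317.6 CPM in cKO, a log2 fold change of -0.09 ± 0.15 (SE). Its close relative Snx12 was at 47.8 and 46.7 CPM in WT and 35.7 and 22.7 CPM in cKO. The WT libraries were nearly equal and both cKO values were lower, with a log2 fold change of -0.69 ± 0.36 (SE) and a range of -1.05 to -0.40 over leaving out each library. Snx12 is the X-linked member. For it, as for every member, the groups are not matched for sex-linked transcripts. The Y-linked Ddx3y was at 94.7 and 89.1 CPM in WT, 106.9 CPM in cKO replicate 1 and 0 in cKO replicate 2. Xist was at 0 in both WT libraries, 6.97 CPM in cKO replicate 1 and 290.4 CPM in cKO replicate 2. Their part in the Snx12 values was not tested.

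Snx20, whose product binds the leukocyte adhesion receptor PSGL-1, was at 38.7 and 43.1 CPM in WT and 28.8 and 30.3 CPM in cKO. Replicates agreed closely in both groups and the cKO values were the lower, with a log2 fold change of -0.47 ± 0.30 (SE) and a range of -0.56 to -0.40 over leaving out each library. Snx24, a short PX protein, was at 43.3 and 43.6 CPM in WT and 50.2 and 58.9 CPM in cKO. It lies 24.8 kb from Snx2 on chromosome 18, on the same strand, and the log2 fold changes of these neighbours were 0.33 and 0.39. Their FPKM ratio, Snx24 to Snx2, stayed between 0.0647 and 0.0729 in the 4 libraries. The distance is from the deposited positions, which for these neighbours did not match GENCODE M21. Snx22 and Snx1, on 1 strand and only 18.4 kb apart, did not go together. Snx22 had no count in either cKO library, while Snx1 was at -0.09 with overlapping groups. A part of nearness was not tested. Snx15, which carries an MIT domain, was at 14.4 and 18.2 CPM in WT and 22.8 and 20.9 CPM in cKO. Snx10, required for the acid-secreting border of osteoclasts, was at 100.5 and 91.1 CPM in WT and 102.7 and 91.9 CPM in cKO. Snx11 and Snx29, the latter with a RUN domain, also had overlapping groups, at 34.7 to 50.3 CPM and 25.2 to 39.9 CPM.

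**Figure D4:**
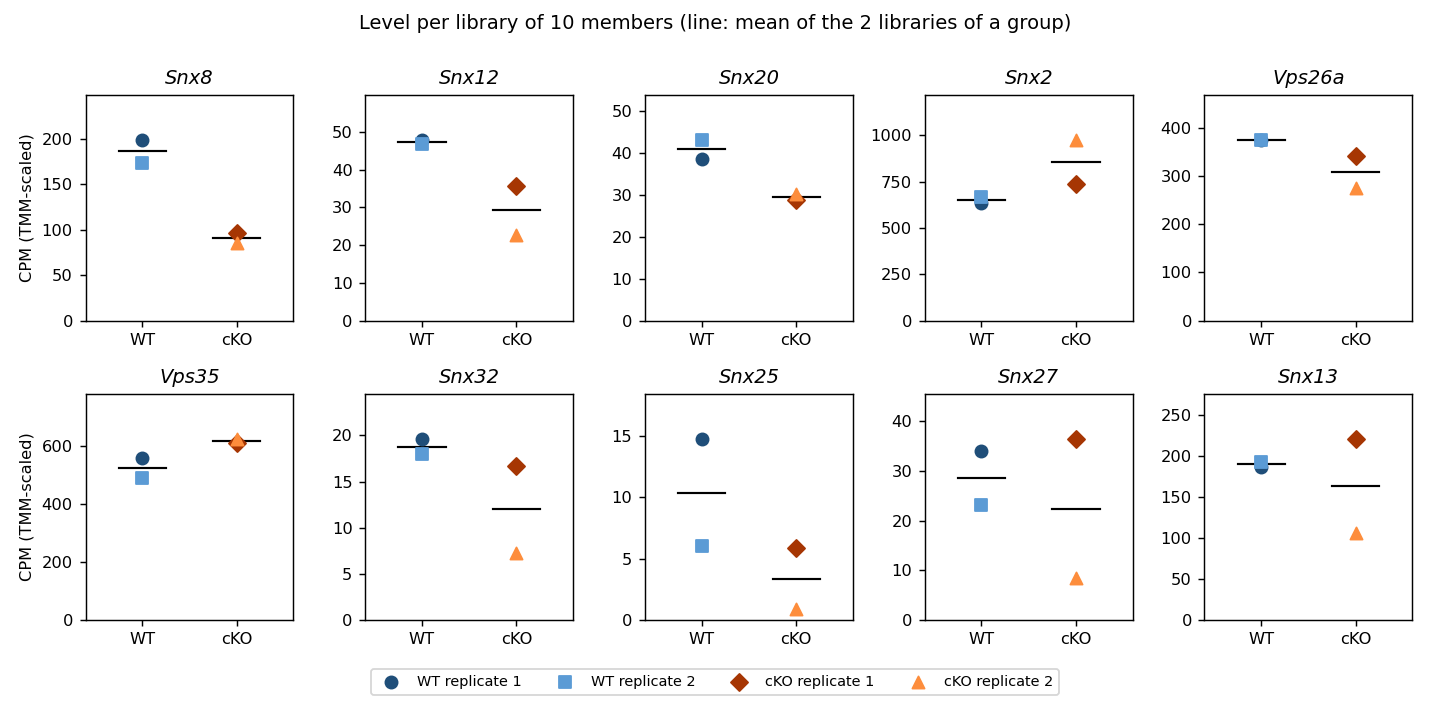
TMM-scaled CPM per library of 10 members, with a line at the mean of each group of 2, and axes from 0. For Snx8, Snx12, Snx20, Vps26a, Snx32 and Snx25 both cKO points lie below both WT points, narrowly for Snx25. For Snx2 and Vps35 both lie above. For Snx32, Snx25, Snx27 and Snx13 the triangle of cKO replicate 2 lies well under the diamond of cKO replicate 1.

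The 3 scarcest members by mean CPM had no count in at least 1 library. Snx16 had 41 and 75 counts in WT, 111 in cKO replicate 1 and 0 in cKO replicate 2. Snx21 had 37 and 92 counts in WT, 67 in cKO replicate 1 and 0 in cKO replicate 2. Both share exon positions with a gene on the opposite strand, Chmp4c for Snx16 and Acot8 for Snx21. Chmp4c was at 0.702 and 0.614 CPM in WT and 0 in both cKO libraries. Acot8 had 23 and 21 counts in WT, 58 in cKO replicate 1 and 2 in cKO replicate 2. A count of 0 in that library allows up to 3 counts, or 0.2 CPM, by counting error alone. Snx22 had 17 and 5 counts in WT and 0 in both cKO libraries, at least 3.76-fold lower in cKO against a floor of 3 counts per library. That bound was 1.802-fold without WT replicate 1 and 5.73-fold without WT replicate 2. The Snx22 gene lies 18.4 kb from Snx1 and shares exon positions on the opposite strand with Ppib, a cyclophilin gene at 18.6 to 33.7 CPM. The annotation in the authors' deposited table gives it the protein family name of that neighbour, Pro_isomerase. In cKO replicate 2, 1253 of 7759 protein-coding genes tested at under 10 FPKM in WT had no count, as had 2 of 14 members. Neither Snx16 nor Snx21 is called lower here, since both had more counts in cKO replicate 1 than in WT replicate 1.

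Replicates of the median member differed less than those of the median gene, and the family also lies at higher levels. At 5 CPM or more on average, the median absolute log2 difference between the WT libraries was 0.174 for 30 members and 0.28 for 9426 genes, and between the cKO libraries 0.336 and 0.577. The cKO libraries differed at least 2-fold for 7 of the 30 members (23.3%) and for 30.4% of genes. Replicate 2 was the lower for Snx13, Snx25, Snx27 and Snx32 and the higher for Snx9, Snx30 and Snx33. In WT, Snx18 and Snx25 differed at least 2-fold.

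The authors' deposited tables each compare 1 cKO with 1 WT library, call genes at a difference of at least 2-fold, and share libraries, so their values are set side by side. For Snx8 the fold of cKO over WT in the authors' deposited tables was 0.494 and 0.570 for cKO replicate 1 against WT replicates 1 and 2, and 0.444 and 0.512 for cKO replicate 2. Snx8 was accordingly called lower in the 2 tables with WT replicate 1 and in neither table with WT replicate 2. In the authors' deposited table of cKO replicate 1 against WT replicate 1, 5 of 33 members, Snx8 included, were called lower (15.8% of genes) and 1 higher (20.3%). Against WT replicate 2 the authors' deposited table called 3 lower (17.6%) and 0 higher (17.2%). For cKO replicate 2 against WT replicate 1, the authors' deposited table called 8 lower, Snx8 included (28.7%), and 1 higher (18.1%). Against WT replicate 2 it was 6 lower (31.7%) and 0 higher (17.1%). All 4 of the authors' deposited tables called Snx22 lower, as they did 3.75% of genes, and they called no member higher in all 4, as they did 1.62%. Snx25 was called lower in 3 of the authors' deposited tables, and Snx16 in opposite directions in different ones. None of the 4 retromer genes was called in any of the authors' deposited tables.

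Other genes of endosomal sorting, listed by name, gave no edgeR call and no DESeq2 call among 127 tested in 9 lists. Over all genes edgeR called 0%, and DESeq2 called 0.216% lower and 0.171% higher, so this count says little about the lists. Their median log2 fold change was -0.05. By CPM, both cKO libraries lay above both WT libraries for 20 of the 121 genes at 5 CPM or more (17.1% of all genes) and below for 21 (19.1%). All 5 genes of the WASH complex, which grows actin on endosomes with retromer, were fitted lower, with a median of -0.27 (-0.62 to -0.08 over leaving out each library). Over all genes tested, 6774 of 13086 were fitted lower, with a median of -0.03 (-0.15 to -0.0071). Both medians were lowest without cKO replicate 1. Washc5 was at 47.7 and 48.8 FPKM in WT and 42.6 and 31.6 FPKM in cKO, and Washc2, the subunit that binds VPS35, at 38.5 and 45.3 FPKM in WT and 40.2 and 32.8 FPKM in cKO. Washc5 separated the groups and Washc2 did not.

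Retriever and the CCC complex, which act with SNX17, had a median of -0.03 over 13 genes. Commd9 was at 173.6 and 191.2 FPKM in WT and 183.2 and 186.4 FPKM in cKO, and Commd10 at 61.9 and 65.0 FPKM in WT and 89.4 and 135.5 FPKM in cKO. Regulators of retromer had 10 of 14 genes fitted higher, as were 6312 of all 13086 tested. Their median was 0.25, or 0.03 without cKO replicate 2. Rab7, the GTPase that recruits retromer to late endosomes, was at 178.1 and 184.9 FPKM in WT and 188.9 and 243.0 FPKM in cKO, and Ehd4 at 143.5 and 169.4 FPKM in WT and 162.1 and 178.1 FPKM in cKO. Both overlapped between groups by CPM, and Rab7 was slightly apart by FPKM. Cargo of retromer and sorting nexins had a median of -0.10 over 20 genes. M6pr, the gene of the cation-dependent mannose 6-phosphate receptor, was at 156.5 and 142.3 FPKM in WT and 114.0 and 143.3 FPKM in cKO. Its groups overlapped by FPKM but not by CPM, at 659.9 and 606.4 CPM in WT and 474.9 and 583.5 CPM in cKO.

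Enzymes of endosomal phosphoinositides, which make or remove the lipids that PX domains read, had a median of -0.05 over 20 genes. Inpp5d was at 147.2 to 176.6 FPKM and Mtmr6 at 31.1 to 32.1 FPKM over the 4 libraries. The HOPS and CORVET tethers had a median of 0.07 over 10 genes. By the mean over the 4 libraries its most abundant genes were Vps11, at 33.3 to 58.2 FPKM and Vps18, at 18.1 to 54.8 FPKM. The ESCRT machinery, which sorts receptors toward the lysosome instead, had a median of -0.20 over 25 genes, with 4 of 23 above and 7 below WT in both cKO libraries (17.1% and 19.1% of all genes). By the same mean its most abundant genes were Chmp1a, at 76.0 to 96.5 FPKM, and Chmp6, at 68.2 to 92.7 FPKM. The GARP and EARP tethers had a median of -0.35 over 5 genes, with Vps52 at 19.9 to 30.4 FPKM and Vps51 at 9.10 to 17.6 FPKM. PX-domain genes outside the Snx names had a median of -0.06 over 15 genes, which turned positive, at 0.0092 to 0.14, when any 1 library was left out. Among them were the NADPH oxidase subunits Ncf1, at 72.7 to 138.1 FPKM, and Ncf4, at 57.4 to 101.5 FPKM.

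**Figure D5:**
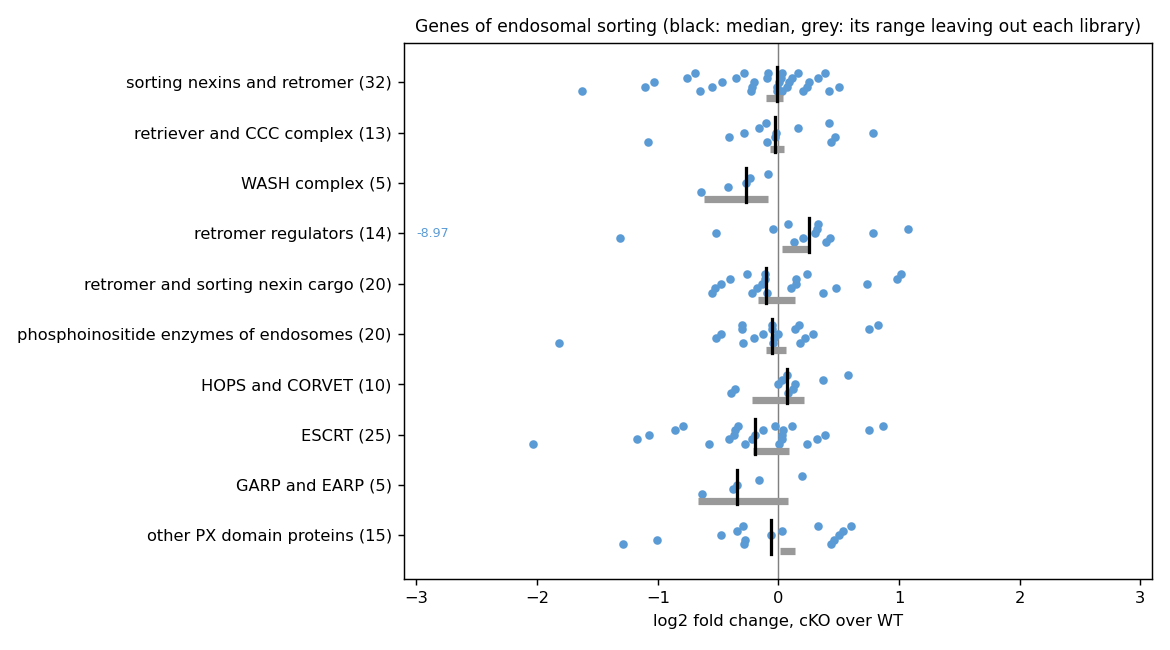
Fitted log2 fold change of cKO over WT for each tested gene of the family and of 9 lists of endosomal sorting genes, with the number of genes in brackets. Black lines mark medians and grey bars their range over leaving out each library. The grey bars span 0 except for the retromer regulators (0.03 to 0.25), the WASH complex (-0.62 to -0.08) and the other PX domain genes. The bar of the last (0.0092 to 0.14) lies on the other side of 0 from their median of -0.06. The median of all genes tested, not drawn, also stayed on 1 side of 0 (-0.15 to -0.0071). The number at the left edge is Ehd3, which had no count in either cKO library.

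The deposited annotation of the table places the members in overlapping classes. Phosphatidylinositol binding is given for 25 of 33 members, among 79 genes of the table. Retrograde transport from endosome to Golgi is given for 7, namely Snx1, Snx2, Snx5, Snx6, Vps26a, Vps26b and Vps29. Snx8 is annotated to the retromer complex along with Snx1, Snx2, Snx5, Snx6, Snx27, Vps26a, Vps26b and Vps29. The 8 genes of that class other than Snx8 had log2 fold changes between -0.35 and 0.39.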

How the data were processed

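The 4 RNA-seq libraries of mouse callosal microglia fell into 2 WT and 2 cKO. Reads were aligned and counted with Bowtie2 2.2.3, TopHat2 2.0.12 and HTSeq 0.6.0 on mm9, per the submitters' processing notes, without settings or strand. Gene positions in the table matched GRCm38 instead, for 92.1% of 21008 genes of GENCODE M21 and 28 of 33 members. A deposited FPKM table covered 21044 genes, and the authors gave 4 pairwise tables with read counts per gene, a normalized signal (not used), a fold as a ratio, its log2 value, and p-values and adjusted p-values whose test no source used here states.

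The deposited counts of the 4 tables were joined, for 18459 genes. Counts missing from the tables of a library were recovered from FPKM for 4315 of 73836 cells, all whole within 1e-06 and at most 4. The test was edgeR 4.0.16 in R 4.3.3 (TMM, filterByExpr, quasi-likelihood F test, Benjamini-Hochberg), with standard errors derived from F. DESeq2 1.42.0, limma 3.58.1, other scalings and filters, a replicate block and leaving out each library were alternatives. Scripts were tested on simulated data. Exon overlaps came from GENCODE M21, with 12 members sharing exon positions with another gene, of which 10 do so on the opposite strand alone, and promoter windows from RefSeq. The members and lists were chosen with earlier results of these data known. Named with a value in each library were Snx8, the 3 most abundant members of each role, members at 5 CPM or more whose groups were apart by at least 0.585 in log2 or whose replicates differed 2-fold, and the 2 genes of each list with the highest mean FPKM over the 4 libraries. A gene of the cargo list is not reported here. Values of other members were added after they were seen.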

Additional observations from a re-analysis of the deposited data

How the results depend on the processing

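The number of genes called was 0 with edgeR under 2 other scalings, library size alone, 2 other filters and the replicate block, and 0 with limma at 3 pseudocounts. It was 52 with DESeq2. The members among these numbered 1, Snx8, whose values chose the family, so that this call is no support. Leaving out each library gave 0 to 748 genes and 0 members, the highest without cKO replicate 1, a fit that takes the spread from the WT libraries. The cause was not tested. Nothing in the labels ties libraries of one number to each other, and their deviations from the group means correlated at -0.0229 over genes. Under the replicate block, Snx8 was at -1.03 and the member median at -0.02. The log2 fold change of Snx8 lay between -1.13 and -0.94 over leaving out each library and between -1.04 and -0.97 under the other alternatives. The member median was -0.10 to 0.035 over leaving out each library, the lowest without cKO replicate 1. At the authors' adjusted p under 0.001 the members called in all 4 tables numbered 0 rather than 1. Of 322 values of 23 named members under alternatives, 304 moved by less than 1 SD. That count is no measure of stability. Snx6 was counted as not moved, although it went from 0.16 to -0.086 without cKO replicate 2. Signs turned for 4 to 7 of 32 members when a library was left out, and for 0 to 2 (Snx5 and Vps29, both near 0) under the rest. With 2 libraries per group, differences of the size of the replicate spread in low members such as Snx25, Snx27 and Snx33 were not detectable. Nor did edgeR on all 4 libraries call any gene at a higher level, Lag3 included.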
